A study of Mus musculus with 12 samples.

Results

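Guanylate-binding proteins (GBPs) and immunity-related GTPases (IRGs) are interferon-induced GTPases, and their transcripts were described here in tumor cells that were WT or A159V for RAC1. The genes followed were those whose Ensembl identifier carries 1 of 10 symbols in the GENCODE M21 annotation: Gbp2, Gbp3, Gbp4, Gbp7, Gbp9, Igtp, Irgm1, Irgm2, Iigp1 and Ifi47. All 10 had a row of their own among the 33219 features of the count table, and all 10 passed the filter on low counts, which left 14340 genes. Tumors were grown under the skin of C57BL/6 mice, 6 to 8 weeks old, from MC38, a mouse colon adenocarcinoma line. The cells were WT or carried a homozygous A159V change of RAC1, made by CRISPR-Cas9 knock-in and grown from single cells. The paper uses clone 9 unless it says otherwise, so that the A159V genotype and the clone cannot be told apart here. From day 3 after implantation, mice of both genotypes received either 100 μg of anti-PD1, an antibody that blocks an inhibitory receptor of T cells, or the IgG isotype control, every 3 days. On day 13, tumor cells were purified with a tumor cell isolation kit, and libraries were made from polyA-selected RNA. Each genotype was thus sampled under IgG and under anti-PD1, which gave 4 groups of 3 mice and 12 samples.

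Both GTPase families act in cell-autonomous immunity, the defense that a cell mounts inside its own cytoplasm. Interferon-γ binds its receptor, the kinases JAK1 and JAK2 pass the signal on, and the transcription factor IRF1 that it induces helps to switch on both families, so that their transcripts serve as a common readout of interferon signaling in tumor cells. GBPs are large, dynamin-like GTPases that assemble on the membranes of pathogen vacuoles and on cytosolic bacteria, where they open the vacuole and feed inflammasomes. IRGs are divided into effectors, such as Iigp1 and Ifi47, which load onto vacuoles and rupture them, and regulators, Irgm1, Irgm2 and Igtp, which sit on the cell's own membranes and keep the effectors inactive there. Proteins of the ATG8 conjugation machinery of autophagy direct both families to their targets.

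Total counts per sample ranged from 14053582 to 21949942. Levels are given as CPM (a gene's share of the sample's counts on a fixed scale), scaled by the TMM method, with the samples of a group always in the order of their replicate numbers, and as mean ± SD where a group is summarized. At these depths 3 counts, taken as the floor of detection, corresponded to 0.144 to 0.201 TMM-scaled CPM, a limit that covers counting error only. The lowest count of any of the 10 genes in any sample was 101, for Gbp4, so that none was near this floor. The 12 samples were fitted together with edgeR, each contrast was tested by quasi-likelihood, and p-values were adjusted by Benjamini and Hochberg's method across the 14340 genes. A gene counts as called if the adjusted p is below 0.05 and the log2 fold change exceeds 0.3 in size. SE is the standard error of a log2 fold change. Replicates varied beyond sampling noise, with the highest values in pairs of the IgG groups. The chi-square per degree of freedom between 2 samples, over the genes tested, was 83.1 and 80.2 for the pairs with A159V IgG replicate 5 and 12.5 for the other A159V IgG pair. In WT IgG it was 55.8, 129.2 and 26.3 for replicates 1 and 2, 1 and 4, and 2 and 4, and with anti-PD1 it was between 6.49 and 18.2. Rac1, the edited gene, had 451 ± 55.5 CPM in WT IgG against 419.6 ± 65.1 CPM in A159V IgG (log2 fold change −0.11, adjusted p = 0.624), and counts per gene do not show the edited codon.

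The label of the cells was set against markers of epithelium and colon. Of 10 such genes, Epcam had at most 2 counts and Cdx2 at most 2 counts in any sample, Cdx1 and Krt20 had at most 3, and only 3 of the 10 passed the filter on low counts. By CPM averaged over the 12 samples the most abundant was Lgals4, with 2.4, 2.94 and 2.36 CPM in WT IgG against 0.582, 0.192 and 0.797 CPM in A159V IgG. In A159V IgG, Vil1 was above it with 1.27, 1.58 and 1.81 CPM. Summed over the list, the level was between 2.56 and 7.98 CPM per sample. The defining transcripts of epithelium were thus at or near 0 in every group, and the cells are called MC38 tumor cells below, without a statement about their epithelial character.

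Levels of the 10 genes can be compared with each other only per length, and CPM per kb of merged exons was used for this. Averaged over the 12 samples, Gbp2 was the highest with 106 CPM per kb, above 96.8% of the genes tested. Igtp followed with 77.5 and Gbp3 with 61.3 CPM per kb. Irgm1, Ifi47 and Irgm2 followed at 35.7, 32.5 and 30.4 CPM per kb, with SDs over all 12 samples of 4.18, 9.02 and 3.74. Ifi47 lay within its SD of both others, while Irgm1 and Irgm2 were farther apart than the SD of either. These SDs span groups whose means differ, and in A159V IgG Ifi47 had 22.6 ± 5.87 against 32.6 ± 5.13 CPM per kb for Irgm1. Gbp7 and Iigp1, at 18.5 and 17.9 CPM per kb, differed by less than the SD of either (4.66 and 5.31). Gbp9 with 8.33 and Gbp4 with 2.03 CPM per kb were the lowest, and 29.9% of the genes tested were below Gbp4. The genes also differed in how far they ranged. The sample with the most Gbp4 had 4.92 times the CPM of the sample with the least, against 3.78 times for Iigp1. This ratio was smallest for Irgm2, with 1.52, and next for Irgm1, with 1.53.

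The genes lie in clusters of the mm10 genome. On chromosome 3, the GBP genes described were Gbp7 (ENSMUSG00000040253, chr3:142530342-142550149, plus strand), Gbp3 (ENSMUSG00000028268, chr3:142560026-142573209, plus strand) and Gbp2 (ENSMUSG00000028270, chr3:142620602-142638008, plus strand). On chromosome 5, they were Gbp9 (ENSMUSG00000029298, chr5:105077630-105139539, minus strand) and Gbp4 (ENSMUSG00000079363, chr5:105115767-105139586, minus strand). The IRG genes of chromosome 11 were Irgm1 (ENSMUSG00000046879, chr11:48861968-48871683, minus strand), Ifi47 (ENSMUSG00000078920, chr11:49076587-49096974, plus strand), Igtp (ENSMUSG00000078853, chr11:58199556-58207591, plus strand) and Irgm2 (ENSMUSG00000069874, chr11:58199618-58222782, plus strand). Iigp1 (ENSMUSG00000054072) lies apart from these clusters. Some models share exons, and the counting mode and strand setting of the deposited counts are not stated. Igtp has 8.01% of its exon bases in exons of Irgm2, Gbp7 has 11.3% in exons of Gm43802, and Ifi47 has 8.77% in exons of Gm12188 and Olfr56, while Gbp4 and Gbp9 share 0.814% and 1.16% of theirs with each other and with Gbp8. Of the 100-base stretches of their transcripts, between 0% and 10% recur in other genes. The split of reads among these overlapping or similar genes is therefore uncertain.

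The comparison of A159V IgG with WT IgG asks how the genotype of the tumor cells bears on these transcripts without checkpoint blockade. Of the 10 genes, Gbp4 had the estimate farthest from 0. It is a GBP of the chromosome 5 cluster whose own function is less known than that of Gbp2. Its level was 23.9, 26.2 and 26.3 CPM in WT IgG against 5.34, 6.58 and 5.37 CPM in A159V IgG. Every A159V sample lay below every WT sample, and the A159V IgG samples lay close together. Gbp4 fell with a log2 fold change of −2.14 (SE 0.21, adjusted p = 7.61e-05), to 0.227 of the WT level. Gbp9, its neighbor, had 43.4, 61.2 and 65.9 CPM in WT IgG against 23.4, 27.9 and 21.7 CPM in A159V IgG. These groups did not overlap either, although WT IgG replicate 1 stood below the other WT samples. Gbp9 fell with a log2 fold change of −1.22 (SE 0.18, adjusted p = 0.000607).

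Of the GBPs of chromosome 3, Gbp2 is a lipid-anchored GBP that coats pathogen vacuoles. Its level was 317, 343 and 299 CPM in WT IgG against 167, 211 and 141 CPM in A159V IgG, and the groups did not overlap. Gbp2 fell with a log2 fold change of −0.89 (SE 0.24, adjusted p = 0.0179). Without A159V IgG replicate 1, the adjusted p was 0.0587 at a log2 fold change of −0.86, and it was not called. Gbp7, a GBP linked to oxidative defense and to autophagy, ranged from 81.7 to 125 CPM in WT IgG and from 54.7 to 94.9 CPM in A159V IgG, and Gbp3 ranged from 171 to 222 and from 150.4 to 208 CPM. Both overlapped between the genotypes and did not pass (log2 fold change −0.42, adjusted p = 0.174, for Gbp7, and −0.12, adjusted p = 0.687, for Gbp3).

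Among the IRG effectors, Iigp1 had 119, 138 and 127 CPM in WT IgG against 70.0, 89.2 and 36.6 CPM in A159V IgG. All A159V samples were lower than all WT samples, and A159V IgG replicate 5 was the lowest of the 12. Iigp1 fell with a log2 fold change of −0.97 (SE 0.26, adjusted p = 0.0162). Ifi47 had 128, 103 and 78.5 CPM in WT IgG against 68.5, 59 and 40.0 CPM in A159V IgG. The groups did not overlap, but the gap between them was smaller than the range within either. Ifi47 fell with a log2 fold change of −0.89 (SE 0.21, adjusted p = 0.00917).

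Of the regulators, Igtp, which resides at the endoplasmic reticulum, had 232, 200.1 and 161 CPM in WT IgG against 128, 119 and 112 CPM in A159V IgG, without overlap. Igtp fell with a log2 fold change of −0.72 (SE 0.17, adjusted p = 0.00808). Irgm1 and Irgm2 overlapped between the genotypes. Irgm1 ranged from 192 to 244 CPM in WT IgG and from 159.4 to 219 CPM in A159V IgG (log2 fold change −0.23, adjusted p = 0.272). Irgm2 ranged from 93.8 to 118 and from 86.6 to 106 CPM (log2 fold change −0.14, adjusted p = 0.459).

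In sum, 6 of the 10 genes were called lower in A159V IgG than in WT IgG (Gbp2, Gbp4, Gbp9, Igtp, Iigp1 and Ifi47), against 12.4% of all genes tested, and 0 were called higher, against 15.6%. These shares of all genes depend on the scaling. With TMM 2231 of 4010 genes called were higher, against 1680 of 3732 with RLE and 1337 of 3650 with upper-quartile scaling, while 6 of the 10 genes were called with each. In the same 6 genes the samples of the groups did not overlap, with A159V IgG lower, which held for 16% of all genes tested. The 10 estimates were all below 0, also under RLE or upper-quartile scaling, and their median log2 fold change was −0.80, beside 0.018 for all genes tested. Upper-quartile normalization moved the median of all genes to −0.12 and that of the 10 genes to −0.95. By family, 3 of 5 GBPs and 3 of 5 IRGs were called, with medians of −0.89 and −0.72. Summed over the 10 genes, the level was 1502, 1542 and 1364 CPM in WT IgG against 1077, 1107 and 808 CPM in A159V IgG. A sample of bulk RNA cannot tell fewer cells that express a gene from less of its RNA per cell.

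**Figure D1:**
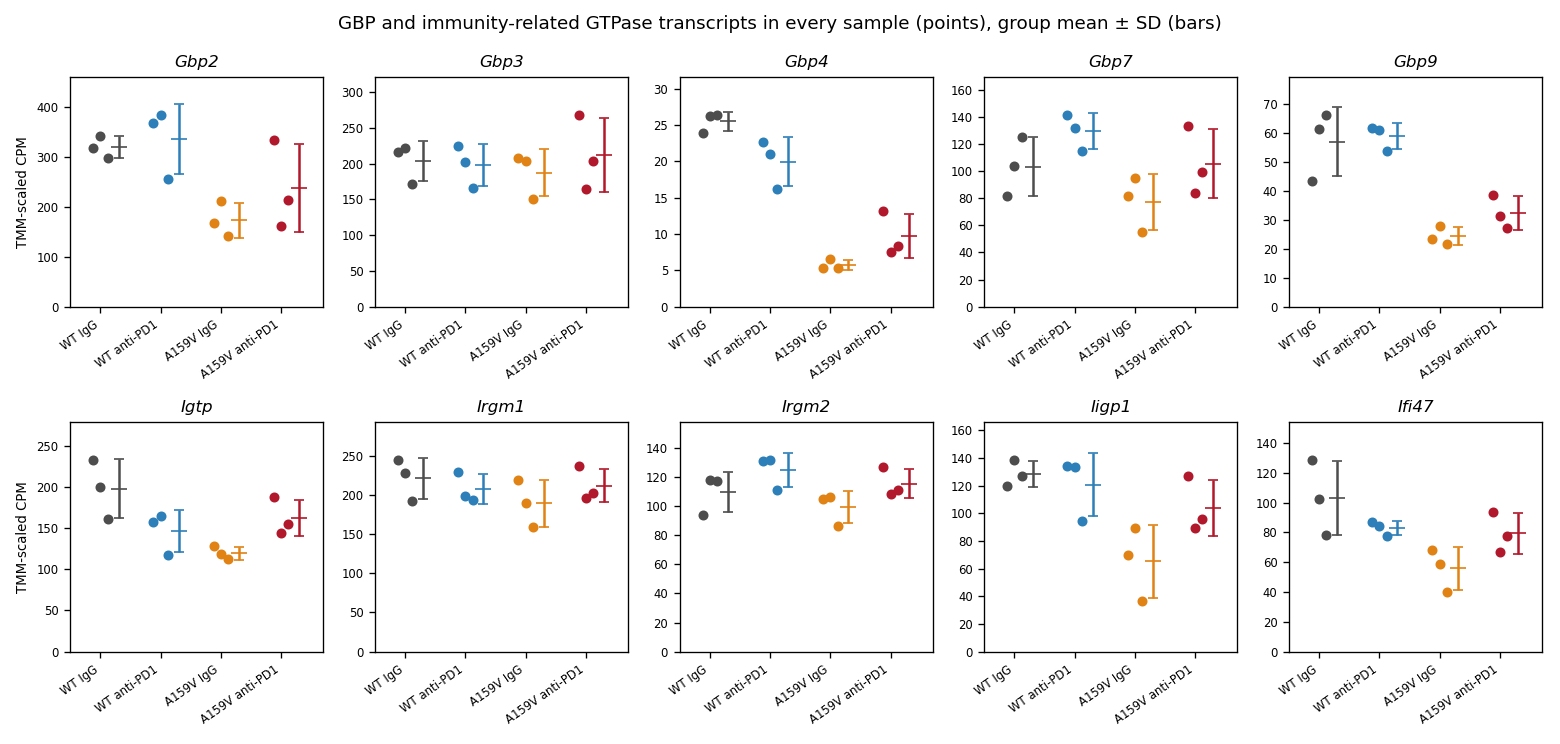
TMM-scaled CPM (vertical axes, from 0) of each of the 10 genes in every sample (points) of the 4 groups (horizontal axes), with the group mean and SD beside the points (n = 3 mice). For Gbp4 all A159V samples lie below all WT samples, with 5.34 to 13.1 CPM against 16.1 to 26.3 CPM, while the genotypes overlap under each treatment for Irgm1 and Irgm2.

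Under anti-PD1, the genotypes were compared by the same test. Gbp4 had 22.7, 21 and 16.1 CPM in WT anti-PD1 and 13.1, 7.55 and 8.4 CPM in A159V anti-PD1. The groups did not overlap, and A159V anti-PD1 replicate 1 was the highest A159V sample. Gbp4 fell with a log2 fold change of −1.04 (SE 0.21, adjusted p = 0.00382). Gbp9 had 61.6, 61.1 and 53.8 CPM in WT anti-PD1 and 38.5, 31.1 and 27.1 CPM in A159V anti-PD1, again without overlap, and fell with a log2 fold change of −0.87 (SE 0.18, adjusted p = 0.0047). These were the 2 of 10 genes called lower, where 10.2% of all genes tested were called lower and 11.2% higher, and 0 of the 10 were called higher. Over all genes the balance again depends on the scaling, since 1613 of 3075 genes called were higher with TMM, 1123 of 2795 with RLE and 931 of 2719 with upper-quartile scaling, with 2 of the 10 called in each case. The same 2 genes were those whose groups did not overlap with A159V lower, which held for 23.5% of all genes tested, a share near that of the 10 genes.

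The remaining 8 genes did not pass between the genotypes under anti-PD1. Gbp2 had 369, 383 and 255 CPM in WT anti-PD1 and 334, 163 and 214 CPM in A159V anti-PD1. The groups overlapped through A159V anti-PD1 replicate 1 and WT anti-PD1 replicate 3 (log2 fold change −0.50, adjusted p = 0.155). Without A159V anti-PD1 replicate 1, Gbp2 was called, with a log2 fold change of −0.83 and an adjusted p of 0.0283. For Igtp the log2 fold change was 0.15 (adjusted p = 0.567), for Iigp1 −0.21 (adjusted p = 0.596) and for Ifi47 −0.063 (adjusted p = 0.858). Gbp3, Gbp7, Irgm1 and Irgm2 lay between −0.29 and 0.10, and the estimate of Irgm1 (0.031) was below 0 under RLE or upper-quartile scaling. The median log2 fold change of the 10 genes was −0.16, beside 0.064 for all genes tested. This median moved with single samples. It was −0.28 without A159V anti-PD1 replicate 1, −0.27 without WT anti-PD1 replicate 3, −0.082 without A159V anti-PD1 replicate 2, and −0.097 and −0.10 without WT anti-PD1 replicates 1 and 2. With upper-quartile scaling it was −0.26. This comparison shares no sample with that under IgG. Whether the genotype effect differs between the treatments is the interaction given below.

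In WT tumor cells, anti-PD1 was compared with IgG to ask how the transcripts respond to checkpoint blockade. None of the 10 genes was called by edgeR, where 0.628% of all genes tested were called in either direction, and DESeq2 and limma voom also called 0 of the 10, with 1478 and 188 genes called in all. At an unadjusted p under 0.05 there was 1 of the 10, Igtp, and 3937 of all 14340. It went from 232, 200.1 and 161 CPM in WT IgG to 157, 165 and 117 CPM in WT anti-PD1, and the groups overlapped (log2 fold change −0.43, SE 0.17, adjusted p = 0.13). Without WT IgG replicate 4, Igtp was called lower, with a log2 fold change of −0.56 and an adjusted p of 0.0301, in a fit that called 3458 genes in all, against 90 with all samples. The estimates of the other 9 genes ran from −0.35 for Gbp4 to 0.32 for Gbp7. The median log2 fold change of the 10 was −0.064, beside 0.014 for all genes tested. Its sign rested on 1 sample, since it was 0.065 without WT anti-PD1 replicate 3, and it was −0.16 without WT anti-PD1 replicate 1, −0.13 without WT IgG replicate 4 and −0.015 without WT IgG replicate 2. With upper-quartile scaling it was −0.11.

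In A159V tumor cells, anti-PD1 against IgG gave 10 estimates above 0, and none was called. No gene of the 14340 passed in this comparison by edgeR (0%), and limma voom called 0 genes, and DESeq2 called 2, of which 0 were among the 10. At an unadjusted p under 0.05 there were 5 of the 10 genes, Gbp4, Gbp9, Igtp, Iigp1 and Ifi47, and 521 of all genes tested. Gbp4 had 5.34, 6.58 and 5.37 CPM in A159V IgG and 13.1, 7.55 and 8.4 CPM in A159V anti-PD1, and all samples with anti-PD1 were above all samples with IgG (log2 fold change 0.75, SE 0.21, adjusted p = 1). Igtp had 128, 119 and 112 CPM and 187, 145 and 155 CPM, likewise without overlap (log2 fold change 0.44, adjusted p = 1). Iigp1 had 70.0, 89.2 and 36.6 CPM and 127, 89.1 and 96 CPM, which overlapped narrowly (log2 fold change 0.67, adjusted p = 1). The groups did not overlap, with anti-PD1 higher, in 3 of the 10 genes (Gbp4, Igtp and Irgm2), against 4.51% of all genes tested. The median log2 fold change of the 10 was 0.45, beside 0.0046 for all genes tested, and it was 0.25 without A159V anti-PD1 replicate 1.

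Single samples stood apart across many of the genes at once. WT anti-PD1 replicate 3 was the lowest of its group in all 10 genes, and A159V anti-PD1 replicate 2 in 9. A159V IgG replicate 5 was the lowest of its group in 9 of the 10 genes (all but Gbp4) and stood at 808 CPM for their sum. This library also stood apart from its group over all genes tested, as given above, and the part of that in the levels of the 10 genes was not tested. By contrast, A159V anti-PD1 replicate 1 was the highest of its group in all 10 and stood at 1558 CPM. The sums in A159V anti-PD1 were 1558, 1056 and 1196 CPM, and those in WT anti-PD1 were 1558, 1513 and 1199.9 CPM. The sums of A159V anti-PD1 thus overlapped with those of every other group. Leaving out A159V IgG replicate 5 or A159V anti-PD1 replicate 1 moved the log2 fold change of Iigp1 with anti-PD1 in A159V from 0.67 to 0.42 or 0.50, and that of Gbp4 from 0.75 to 0.73 or 0.47.

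The difference between the anti-PD1 effects of the genotypes was tested as an interaction, which is positive where the change is more upward in A159V. It was called for 0 of the 10 genes and for 0.00697% of all genes tested, which is 1 gene. At an unadjusted p under 0.05 there were 3 of the 10 and 2517 of all 14340. The 3 were Gbp4 (difference of log2 fold changes 1.10, SE 0.29, unadjusted p = 0.00233, adjusted p = 0.173), Igtp (0.87, SE 0.24, adjusted p = 0.175) and Ifi47 (0.82, SE 0.30, adjusted p = 0.227). DESeq2 called 2 of the 10, Gbp4 (adjusted p = 0.0277) and Igtp (adjusted p = 0.0378), where it called 295 genes in all, and limma voom called 0 of the 10 and 1 gene in all. Without WT IgG replicate 4, edgeR called Igtp (1.00, adjusted p = 0.0331) among 1182 genes in all. All 10 estimates were above 0 with TMM, RLE and upper-quartile scaling, with a median of 0.37 beside 0.013 for all genes tested. Without A159V anti-PD1 replicate 1 the median was 0.19. Since 10 genes of 1 pathway are not independent, this count of signs carries no p.

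**Figure D2:**
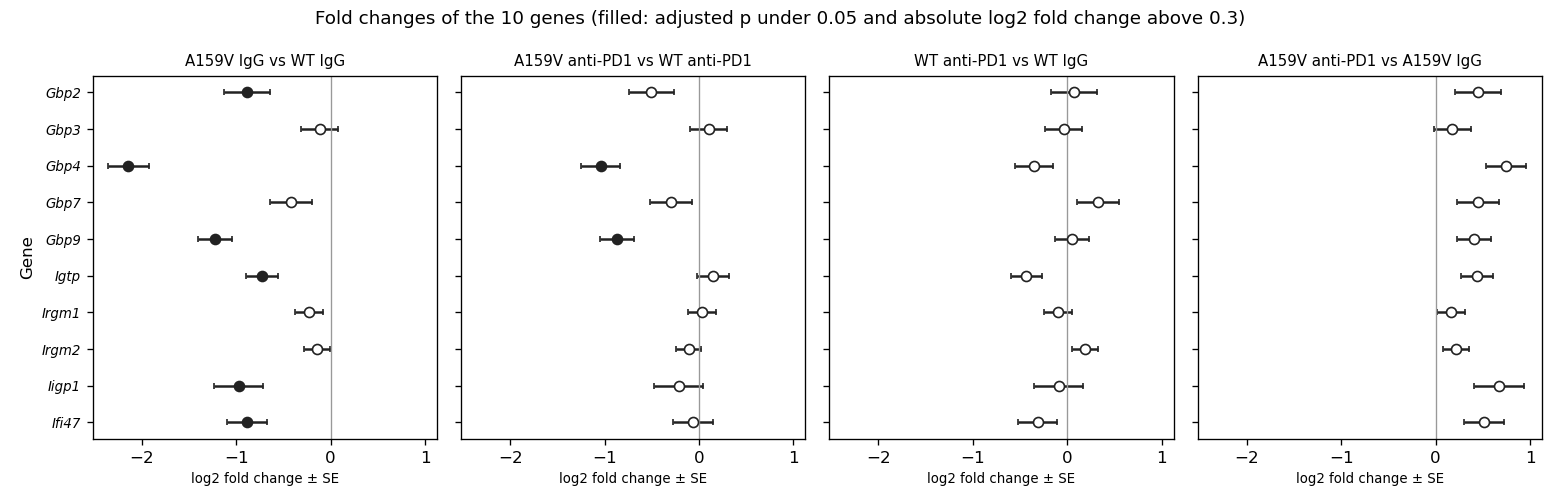
Log2 fold change and its standard error (horizontal axes) of each of the 10 genes (vertical axis) in the 4 pairwise comparisons, with filled points for called genes (adjusted p below 0.05, log2 fold change beyond 0.3 in size). The panels for the genotype hold 6 and 2 filled points, all below 0, and the panels for anti-PD1 hold none.

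Transcripts of other cell types were counted in the same samples, and with anti-PD1 in A159V edgeR called none of the genes of these lists, with 1, of the fibroblast list, at an unadjusted p under 0.05. Of 6 pan-leukocyte genes, 5 were called lower in A159V IgG than in WT IgG and all 6 lower in A159V anti-PD1 than in WT anti-PD1. In these comparisons 12.4% and 10.2% of all genes tested were called lower. Ptprc, Cd52 and Tyrobp reached the level of the low-count filter in fewer than 3 samples outside WT anti-PD1, so that they were tested only because they were high there, and estimates below that group were built in by the filter. Fcer1g had at most 6 counts in any A159V sample and passed the filter only through the WT samples. The list's summed level was 9.89, 4.28 and 14.5 CPM in WT IgG, 29.6, 41 and 27.8 CPM in WT anti-PD1, 3.97, 3.89 and 3.83 CPM in A159V IgG and 3.49, 4.84 and 4.45 CPM in A159V anti-PD1. The most abundant was Laptm5, with 4.04, 2.02 and 7.23 CPM in WT IgG, and Ptprc, which defines leukocytes, had 0, 2 and 4 counts in A159V IgG and 1, 1 and 5 counts in A159V anti-PD1.

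Of 12 T and NK cell genes, 8 passed the filter, and 4 of them were called higher with anti-PD1 in WT, 2 lower in A159V IgG than in WT IgG, and 8 lower in A159V anti-PD1 than in WT anti-PD1. In 6 of the 8 (Cd3g, Cd8a, Cd8b1, Trac, Nkg7 and Prf1), the level of the filter was likewise reached in fewer than 3 samples outside WT anti-PD1. These 6 include all 4 called with anti-PD1 in WT, so that neither count against WT anti-PD1 is a result about the list. Its summed level was 3.99, 2.2 and 7.58 CPM in WT IgG, 23.4, 42 and 22.7 CPM in WT anti-PD1, 0.74, 1.15 and 0.85 CPM in A159V IgG and 0.872, 1.01 and 1.5 CPM in A159V anti-PD1. Gzmb was the most abundant by CPM averaged over the 12 samples, while in A159V IgG Cd3d (0.337 ± 0.163 CPM) was above Gzmb (0.0886 ± 0.153 CPM). Both had at most 11 counts in any A159V sample. They passed the filter only through the WT samples, so that estimates below WT were favored by the filter. Cd3e had 0, 0 and 1 counts in A159V IgG and 0 counts in all A159V anti-PD1 samples. T and NK cells are the main source of interferon-γ, and Ifng itself had at most 2 counts in any of the 12 samples. Of 6 fibroblast genes, 4 were called lower in A159V under each treatment, beside 12.4% (IgG) and 10.2% (anti-PD1) of all genes tested. Their summed level was 718, 306 and 650.3 CPM in WT IgG, 439, 617 and 757 CPM in WT anti-PD1, 208, 263 and 188 CPM in A159V IgG and 200.4, 219 and 253 CPM in A159V anti-PD1, with Dcn the most abundant by CPM in 11 of the 12 samples (Pdgfra was above it in A159V anti-PD1 replicate 1) and none of the genes at 0.

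Further marker lists are given first under IgG, where 15.6% of all genes tested were called higher and 12.4% lower in A159V. The 9 monocyte and macrophage genes, of which 4 were tested and 1 was called higher in A159V IgG than in WT IgG, summed to between 25.8 and 30.4 CPM in WT IgG and to 46.3, 39.2 and 57.5 CPM in A159V IgG, with Cd68 the most abundant. The gene called was Cd68 (0.81), and the other 3 tested did not pass, Lyz2 (0.62, adjusted p = 0.111), C1qb (−0.97, adjusted p = 0.135) and Itgam (−1.84, adjusted p = 0.0851). C1qb reached the filter's level in fewer than 3 samples outside WT IgG, so that an estimate below that group was built in by the filter. The 4 B cell genes, of which 2 were tested and 1 was called higher, summed to 6.17, 5.32 and 3.76 CPM in WT IgG and to 8.09, 7.97 and 7.01 CPM in A159V IgG, with Cd79a the most abundant. For the sums of both lists, all A159V IgG samples were above all WT IgG samples. The 5 dendritic cell genes, with 1 of 4 tested called higher and 1 lower, summed to 18, 16 and 21.5 CPM in WT IgG and to 14.4, 15.4 and 16.9 CPM in A159V IgG. The 5 endothelial genes, with 1 of 3 tested called higher, summed to 6.28, 8.01 and 9.89 CPM and to 9.52, 7.44 and 5.79 CPM, and the 5 neutrophil genes, with 0 of 1 called by edgeR and 0 at an unadjusted p under 0.05, to 0.656, 0.489 and 0.803 CPM and to 0.74, 2.21 and 0.159 CPM. The last 3 sums overlapped between these groups. Cd79b, the B cell gene called, and Tie1, the endothelial gene called, had at most 9 counts in any WT sample. Both passed the filter only through the A159V samples, so that estimates above WT were built in by the filter.

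Under anti-PD1, the endothelial sum was lower in A159V, with 14.8, 13.4 and 13.5 CPM in WT anti-PD1 and 9.1, 7.87 and 9.4 CPM in A159V anti-PD1, without overlap. Of its 3 tested genes, Cdh5 (−0.74) and Pecam1 (−1.08) were called lower, while Tie1, which was called higher under IgG (2.56), had an estimate above 0 and did not pass (1.40, adjusted p = 0.0522). The neutrophil sum did not overlap either, with 1.24, 2.41 and 1.11 CPM in WT and 0.763, 1.01 and 0.946 CPM in A159V, but S100a8, its 1 tested gene, had an estimate in the other direction (0.23, adjusted p = 0.833) and was not called. The B cell sum was higher in A159V, with 4.97, 3.49 and 6.46 CPM and 7.19, 8.13 and 8.79 CPM. Of its 2 tested genes, 1 was called higher, beside 11.2% of all genes tested. The monocyte and macrophage sums overlapped, with 47.8, 46.9 and 32.7 CPM and 41.7, 44.5 and 45.1 CPM, and so did the dendritic cell sums, with 21.2, 16.9 and 24.3 CPM and 16.2, 17 and 17.1 CPM. In each of these 2 lists 1 of 4 genes was called lower, beside 10.2% of all genes tested. In the first it was Itgam, which also reached the filter's level in fewer than 3 samples outside WT anti-PD1. The part of other cells in the levels of the GBPs and IRGs was not tested.

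Both families have further genes, and a list of 20 of them was followed beside the 10. Of these 20, 12 had a row, 11 were tested, and Gbp5, Gbp6, Gbp10, Gbp11, Gm12250, Gm17757, Gm8995 and Gm1966 were not analysed here. Between A159V IgG and WT IgG, 5 of the 11 were called lower and 0 higher, with a median log2 fold change of −0.64. Of all genes tested, 12.4% were called lower and 15.6% higher. Gbp8, whose model shares exons with those of Gbp4 and Gbp9, had 8.14, 8.75 and 9.33 CPM in WT IgG against 1.06, 1.82 and 1.17 CPM in A159V IgG. Gbp8 fell, with an estimate below those of both neighbors (log2 fold change −2.68, SE 0.27, adjusted p = 7.61e-05), and whether it fell more than Gbp4 was not tested. F830016B08Rik, an IRG-like gene, had 2.84, 5.08 and 7.48 CPM and 0.529, 1.15 and 0.691 CPM (log2 fold change −2.68, adjusted p = 0.000794). The other 3 genes called were Gm4951 (−0.83), Gm12185 (−0.64) and Gm4070 (−0.79). Gbp2b did not pass (log2 fold change −0.52, adjusted p = 0.0743).

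Several of these relatives are near copies, and their counts are uncertain. Tgtp1 and Tgtp2, IRG effectors with nearly the same sequence, share 73.1% and 76.8% of their 100-base stretches with other genes, chiefly each other, and had log2 fold changes of −0.41 and −0.53 under IgG, which did not pass (adjusted p = 0.204 and 0.0791). Gvin1 and Gm4070, of the very large interferon-inducible GTPases, share 97.8% and 95.6% and had −0.78 (adjusted p = 0.0561) and −0.79 (adjusted p = 0.0466), on either side of the threshold. Irgq and Irgc1 belong to the IRG family by sequence and are not known as interferon-induced genes. Irgq had a log2 fold change of 0.30 (adjusted p = 0.238), and Irgc1 had at most 1 count. Under anti-PD1, 2 of the 11 relatives were called lower in A159V, Gbp8 (log2 fold change −1.66, adjusted p = 0.000848) and F830016B08Rik (−3.31, adjusted p = 0.000183). Of all genes tested, 10.2% were called lower in this comparison. Neither anti-PD1 comparison called any of the 11 by edgeR, at unadjusted p-values under 0.05 for 2 in WT and 8 in A159V. Of all 14340 genes, 3937 in WT and 521 in A159V were at such p-values.

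Upstream of the GTPases, 16 of 17 genes of the interferon-γ pathway were tested, and 5 were called lower and 2 higher in A159V IgG than in WT IgG (median log2 fold change −0.24), where 12.4% and 15.6% of all genes tested were. Ifngr1, a receptor chain, had 45.8, 40.9 and 46.3 CPM in WT IgG against 30.6, 32.9 and 31 CPM in A159V IgG (log2 fold change −0.49, adjusted p = 0.0108). Irf1, the transcription factor that drives many GBP and IRG genes, had 451, 377 and 363 CPM and 190.0, 239 and 265 CPM (log2 fold change −0.78, adjusted p = 0.00469). Both fell without overlap between the groups. Stat2, the feedback inhibitor Socs1 and Ciita, the activator of MHC class II genes, fell with log2 fold changes of −0.61, −0.86 and −2.84, and Jak1 and Stat3 rose with 0.67 and 0.84. Ciita had 3 to 6 counts in A159V IgG and 3 to 14 in A159V anti-PD1. It passed the filter on low counts only through the WT samples, so that an estimate below WT was built in by the filter.

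Under anti-PD1, 4 of these 16 genes were called lower in A159V and 0 higher (median log2 fold change −0.19). Of all genes tested, 10.2% were called lower and 11.2% higher. The 4 genes were Ifngr1 (−0.79, adjusted p = 0.000925), Socs1 (−0.87), Socs3 (−0.82) and Irf8 (−1.71), a factor also made by myeloid and lymphoid cells. Irf1 had 265, 249 and 228 CPM in WT anti-PD1 and 295, 224 and 214 CPM in A159V anti-PD1, and the groups overlapped. Irf8 was the only gene of the list called with anti-PD1 in WT, where it rose (1.85, adjusted p = 0.0301). At an unadjusted p under 0.05 there were 6 of the 16 in WT, beside 3937 of all 14340 genes. Irf1 was not called there, although all WT anti-PD1 samples (228 to 265 CPM) were below all WT IgG samples (363 to 451 CPM). With anti-PD1 in A159V, 0 of the list were called.

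Other interferon targets were counted in the same way. Of 16 tested targets of interferon-γ outside the GTPases, 6 were called lower and 0 higher in A159V IgG than in WT IgG (median log2 fold change −0.58). Of all genes tested, 12.4% were called lower and 15.6% higher, and Cxcl11 was not analysed here. The 6 targets were the immunoproteasome genes Psmb8 (−0.73) and Psmb9 (−0.99), the proteasome activator genes Psme1 (−0.57) and Psme2 (−0.68), the ubiquitin-like modifier gene Ubd (−3.88) and Cd74 (−1.87). Ubd had 3 to 12 counts in A159V IgG. It passed the filter on low counts only through the WT samples, so that an estimate below WT was built in by the filter. Under anti-PD1, 0 of the 16 were called between the genotypes by edgeR, with 4 at an unadjusted p under 0.05 (median 0.015). With anti-PD1 in WT, 0 of the 16 were called by edgeR, with 9 at an unadjusted p under 0.05, and 14 estimates were below 0 (median −0.57). In A159V, 0 were called, with 1 at an unadjusted p under 0.05 (median 0.13). The interaction was called for 0 of them, with 9 at an unadjusted p under 0.05, and 13 estimates were above 0 (median 0.73). Cxcl10, a chemokine of the same response, had 1289, 687 and 740.4 CPM in WT IgG against 639.6, 608 and 555 CPM in A159V IgG and did not pass (adjusted p = 0.0552). Of 17 genes of the type I interferon response, 3 were called lower, Mx1 (−1.52), Mx2 (−1.25) and Ifit3 (−0.61), and 1 higher, Rsad2 (0.47), in A159V IgG, where 12.4% and 15.6% of all genes tested were, so that, counting both directions, the list was called no more often than genes at large. Its median log2 fold change was −0.13. Under anti-PD1, Mx1 (−0.93) and Mx2 (−0.71) were called lower, beside 10.2% of all genes tested. Mx1 and Mx2 encode dynamin-like GTPases as the GBPs do.

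Genes that work with the GTPases were followed as well. None of 10 genes of ATG8 conjugation was called by edgeR in any of the 4 pairwise comparisons, with 0, 1, 1 and 0 of them at an unadjusted p under 0.05 between the genotypes under IgG, between the genotypes under anti-PD1, and with anti-PD1 in WT and in A159V. Of 10 tested inflammasome genes, Gsdmd, the pore-forming protein, was called lower in A159V under both treatments (−1.80 and −1.39), as was the cytokine gene Il18 (−3.62 and −2.80). Il18 had 1 to 5 counts in A159V IgG and 1 to 9 in A159V anti-PD1. It passed the filter on low counts only through the WT samples, so that estimates below WT were built in by the filter. Nlrc4, an inflammasome receptor for bacterial proteins, was called higher (2.92 and 3.36), from 0.382, 0.856 and 0.652 CPM in WT IgG to 4.02, 4.8 and 5.53 CPM in A159V IgG. Il1b was called lower under anti-PD1 (−3.29), and it too was tested only because it was high in WT anti-PD1. Casp4, the sensor of bacterial lipopolysaccharide that GBPs help to engage, had 89.4, 75.8 and 74.2 CPM in WT IgG against 66.4, 82.6 and 34.8 CPM in A159V IgG and did not pass (adjusted p = 0.233). Of 9 tested genes for the recognition and ubiquitination of vacuoles, Optn (0.67) and Lgals9 (0.52) were called higher and Trim21 (−0.51) lower in A159V IgG, where 15.6% of all genes tested were called higher and 12.4% lower, so that this count, like that of 1 higher and 2 lower of the 10 inflammasome genes, is near that of genes at large. Of the 9, 0 were called under anti-PD1 by edgeR, with 2 at an unadjusted p under 0.05.

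The 10 genes moved together across samples to different degrees. Over the 12 samples, which share 4 groups, Pearson's r of log2 CPM between pairs of them ranged from 0.198 to 0.953, with a median of 0.695 over 45 pairs. After each group's mean was subtracted, the median was 0.659, so that much of it was also seen among mice of the same group. Over the 12 samples the closest pair was Gbp4 and Gbp9, neighbors on chromosome 5, and the next was Gbp7 and Irgm2 (r = 0.939), which lie on different chromosomes. Igtp and Ifi47, both of chromosome 11, had r = 0.877, while Igtp and Irgm2, which are closer neighbors there and share exons, had r = 0.291. With the group means subtracted, the order differed. Gbp2 and Gbp4 (0.937) and Irgm1 and Ifi47 (0.936) were then the closest, Gbp4 and Gbp9 had 0.701, and Gbp9 and Ifi47 were the lowest at −0.062. The mean of the z-scored log2 CPM of the 10 genes was 0.58, 0.81 and 0.35 in WT IgG, 0.86, 0.66 and −0.13 in WT anti-PD1, −0.64, −0.58 and −1.88 in A159V IgG and 0.80, −0.61 and −0.21 in A159V anti-PD1. On this scale the A159V IgG samples were below all others but A159V anti-PD1 replicate 2, and A159V IgG replicate 5 was the lowest.

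Of the 14330 other genes tested, the 10 whose log2 CPM had the highest Pearson's r with this mean over the 12 samples were, in order, Fam169a (0.966), Gm43302 (0.943), ENSMUSG00000054588 (0.941), Styk1 (0.931), Snora75 (0.923), Gm24148 (0.919), Sms (0.917), Mir17hg (0.911), Trim12c (0.91) and 2610301B20Rik (0.908). Gm43302 lies on chromosome 5 and shares exons with Gbp6 and Gbp10, and ENSMUSG00000054588 has no symbol in GENCODE M21. Sms encodes spermine synthase and Trim12c a TRIM protein, and Snora75 and Gm24148 are small nucleolar RNA genes that a polyadenylated library measures poorly. Fam169a was at 0.834 CPM on average, so that its counts were low. Spearman's rho of the 10 genes lay between 0.804 and 0.944. Within the 6 WT samples r lay between 0.246 and 0.907, and within the 6 A159V samples between 0.887 and 0.994. These genes are the highest of 14330, and the values describe likeness only.

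Since the genes moved together across samples, their promoters were searched for letters of an element through which interferons act. Promoter windows of 250 bases before to 50 after the start came from RefSeq on GRCm38.p6. Of the 10 genes, 7 were searched, with 8 windows, since Gbp3 has 2. Gbp4 and Gbp9 had no entry, and Iigp1 was not searched, so that nothing is said about its promoter. The interferon-stimulated response element (ISRE), bound by IRF1 and related factors, was searched on both strands as GAAA, any 2 bases and GAAA again, with overlapping matches counted. Over all 32851 promoter windows of this length, 3.44% held these letters. Of the 7 genes, 6 held them (all but Ifi47). The matches began between 64 and 24 bases before the start.

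The stretches with matches are shown, from RefSeq GRCm38.p6, 5′ to 3′ on the strand of the gene, with the matched letters in capitals. They are at chr11:58199507-58199546 for Igtp, chr11:58214898-58214937 for Irgm2, chr3:142530268-142530307 for Gbp7 and chr3:142559984-142560029 for Gbp3, all on the plus strand.
Igtp: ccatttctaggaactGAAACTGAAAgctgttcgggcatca
Irgm2: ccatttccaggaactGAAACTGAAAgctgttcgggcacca
Gbp7: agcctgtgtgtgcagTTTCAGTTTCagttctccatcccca
Gbp3: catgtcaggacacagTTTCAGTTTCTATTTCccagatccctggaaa
The Igtp and Irgm2 stretches have the same bases at 38 of 40 positions, with the same matched letters. In Gbp3, 2 ISRE matches overlap, so that their capitals run together.

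For Gbp2 and Irgm1, where 27 and 30 bases of the stretch lie within exons of the GENCODE models, the runs are shown in the same way, at chr3:142620589-142620628 on the plus strand and chr11:48871428-48871457 on the minus strand.
Gbp2: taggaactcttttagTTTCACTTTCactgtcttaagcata
Irgm1: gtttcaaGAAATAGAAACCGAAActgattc
Irgm1 again has 2 overlapping ISRE matches. Genes with like letters differed in their counts. Between A159V IgG and WT IgG, Igtp was called lower (−0.72) and Irgm2 was not (−0.14), although their stretches differ by 2 bases, and Ifi47, without these letters in its window, was called lower (−0.89). Whether Igtp and Irgm2 differ in their change was not tested. The GENCODE model of Irgm2 begins at chr11:58199618, within that of Igtp and before the Irgm2 stretch shown. The counts of Irgm2 need not come from the start of that window alone. A match is a run of letters, and binding at these places was not measured.

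**Figure D3:**
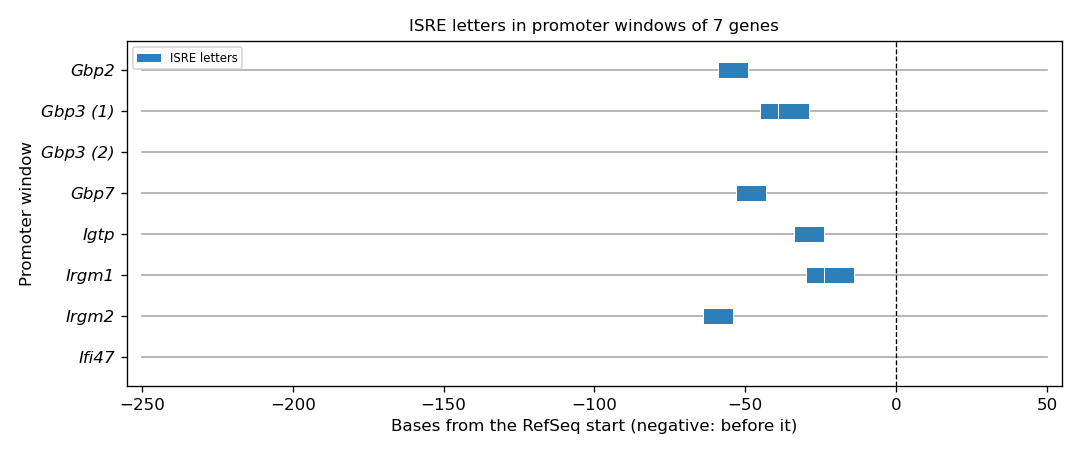
Positions of the ISRE letters (blue bars) in the 8 promoter windows of 7 genes, from 250 bases before to 50 bases after the RefSeq start (horizontal axis, in bases). Each gray line is 1 window (vertical axis), and the matches begin between 64 and 24 bases before the start.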

How the data were processed

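The authors aligned paired reads of 100 bases to mm10 with STAR, counted reads per gene with summarizeOverlaps and deposited raw counts without normalization. Group and replicate number were read from the sample titles. Symbols, positions and exon lengths came from GENCODE M21. Reporter rows (2, with 0 counts) and identifiers without a symbol took no part in the lists. Counts were filtered with filterByExpr, scaled by TMM and tested with edgeR 4.0.16 in R 4.3.3, with a model of 4 groups and 5 contrasts. Log2 CPM for correlations used a prior count of 2. Alternatives were RLE and upper-quartile scaling, filters, DESeq2 1.42.0, limma 3.58.1 voom, thresholds, a replicate block, the 2 groups compared alone and each sample left out. The 10 genes and the gene lists were written from general knowledge and chosen with earlier results of these data known. Named were the 10 genes, list genes with the smallest p or that define a list, Rac1 and the 10 genes most alike by Pearson's r. Figures were drawn with matplotlib 3.10.9.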

Additional observations from a re-analysis of the deposited data

Results flagged for a closer look

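For Gbp4 the samples lay in opposite directions with anti-PD1 in the 2 genotypes, and neither difference passed in edgeR (log2 fold change −0.35, adjusted p = 0.264, in WT, and 0.75, adjusted p = 1, in A159V). All 3 WT anti-PD1 samples (22.7, 21 and 16.1 CPM) were below all 3 WT IgG samples (23.9, 26.2 and 26.3 CPM), while all 3 A159V anti-PD1 samples (13.1, 7.55 and 8.4 CPM) were above all 3 A159V IgG samples (5.34, 6.58 and 5.37 CPM). The difference between the log2 fold changes was 1.10 and did not pass in edgeR's test of the difference itself (adjusted p = 0.173). Its adjusted p ranged from 0.0277 with DESeq2 to 0.179 over the alternatives that left out no sample, and from 0.0531 to 0.36 with 1 sample left out.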

How the results depend on the processing

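Between A159V IgG and WT IgG, the count of 6 genes called held in 9 of 10 alternatives other than leaving out 1 sample, and was 2 at a log2 fold change above 1. The 2 genes called under anti-PD1 became 1 at that limit. For these counts fewer genes reach the higher limit by construction. For the interaction, DESeq2 called 2 of the 10 genes and 295 in all, and edgeR 0 and 1, and the cause was not tested. With the replicate block, which gives same-numbered mice a shared term, 2 were called with anti-PD1 in WT (Igtp and Ifi47) and 3 for the interaction (Gbp4, Igtp and Ifi47), when 4650 and 2760 genes were called in all, against 90 and 1. The counts of 6, 2 and 0 in the other comparisons did not change. WT IgG replicate 4 and A159V IgG replicate 5 share their number with no other sample, so that this block fits each of them exactly and the comparisons rest on the other 10 samples. The numbers belong to different mice, and the correlation of same-numbered samples' deviations from their group means ran from −0.178 to 0.205 over 13 pairs, so that samples were not treated as paired.

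With 1 sample left out, the counts ranged from 5 to 6, from 2 to 3, from 0 to 1 (WT, anti-PD1), 0 in every case (A159V, anti-PD1) and from 0 to 1 (interaction). Both values of 1 were Igtp without WT IgG replicate 4, when edgeR called 3458 and 1182 genes in all, against 90 and 1 with all samples. For the 6 and the 2 genes called between the genotypes, the direction was the same in every alternative run.

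Signs turned only for estimates that were not called. With TMM, Irgm1 under anti-PD1 was 0.031, against −0.036 with RLE size factors, −0.064 with upper-quartile normalization, −0.051 with at least 10 counts in every sample, −0.036 with DESeq2 and −0.051 with the 2 groups alone. With the replicate block, Iigp1 in WT was 7.80e-05, and the interactions of Gbp7 and Irgm2 were −0.23 and −0.11. The causes were not tested. With 1 sample left out, the log2 fold change between the genotypes under anti-PD1 ranged over −0.049 to 0.11 (Irgm1), −0.093 to 0.26 (Gbp3) and −0.19 to 0.055 (Ifi47), with anti-PD1 in WT over −0.037 to 0.23 (Gbp2), −0.15 to 0.070 (Gbp3), −0.12 to 0.17 (Gbp9) and −0.17 to 0.059 (Iigp1), in A159V over −0.024 to 0.33 (Gbp3), and the interaction over −0.077 to 0.31 (Gbp7) and −0.044 to 0.13 (Irgm2). The adjusted p of Igtp's interaction was 0.0195 with the replicate block, ranged from 0.0378 with DESeq2 to 0.18 over the other alternatives that kept every sample, and from 0.0331 to 0.364 with 1 sample left out. The 10 genes had at least 101 counts in every sample.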
